A study of Mus musculus with 48 samples.

Results

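Cirbp and Rbm3 encode a pair of small RNA-binding proteins that are induced when cells are cooled mildly. Their expression over the day was measured in whole kidneys of young and nephritic lupus-prone mice. All probes that the array annotation assigns to either gene symbol were taken, which gave 2 of 16593 annotated genes and 4 of 25697 probes. Cirbp (GRCm38.p6 chromosome 10, 80165990 to 80172786) had 1 probe, ILMN_2761594, which was detected on 48 of 48 arrays. Rbm3 (GRCm38.p6 chromosome X, 8138975 to 8145880) had 3 probes. Of these, ILMN_1234453 was detected on 48 arrays, ILMN_1253012 on 32 and ILMN_2985568 on 1. Unless another probe is named, Rbm3 values are those of ILMN_1234453.

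Both proteins carry 1 RNA recognition motif followed by a glycine-rich tail. In mice, which are nocturnal, body temperature is low in the light phase and high in the dark phase, and in mouse liver and cultured cells Cirbp and Rbm3 mRNA run opposite to temperature while mRNAs of heat shock chaperones follow it. CIRBP binds the transcripts of clock genes including Clock, both proteins affect the choice of poly(A) site, and CIRBP released from cells acts as a danger signal on the TLR4 and MD-2 receptor complex and on TREM-1. Body temperature itself was not analysed here.

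Kidneys of NZB/W F1 mice, which are prone to lupus nephritis as they grow older, were collected at 6 Zeitgeber times (ZT) 4 h apart, with lights on at ZT0 and lights off at ZT12. Young mice were 12 weeks old. Nephritic mice had shown proteinuria over 300 mg/dl for 2 to 3 weeks, and their blood urea nitrogen had not yet exceeded 25. All kidneys were perfused with PBS, and no treatment other than the time of harvest was labelled. There were 26 young arrays (6 at ZT12 and 4 at each other time) and 22 nephritic arrays (5 each at ZT8 and ZT12 and 3 at each other time). The nephritic mice were older than the young mice, so disease and age cannot be told apart. The labels did not state that each array held a separate mouse, so p-values measured the spread between arrays.

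The median signal was 98.1 to 117.9 per array, with 12706 to 14077 probes detected. The kidney markers Umod, Slc34a1, Aqp2, Slc12a1, Slc12a3 and Cdh16 were detected on all 48 arrays and Lrp2 on 47. A group of 8 nephritic arrays stood apart from the rest, namely every array of ZT0 and ZT4 and, from ZT16 and ZT20 alike, the array numbered replicate 3. They were defined by Pabpc1, the main cytoplasmic poly(A) binding protein, at 5.94 to 6.69 log2 against 8.20 to 9.51 on the other nephritic arrays and 8.52 to 9.37 on the young arrays. Cirbp lay between 6.87 and 7.68 on these 8 arrays and between 6.58 and 8.50 on the other 14 nephritic arrays. Results of Cirbp and Rbm3 in nephritic kidneys are therefore also given without them, or with a term for them, where this changed a call. In fits of group means only ZT16 and ZT20, which held both kinds of nephritic array, set the size of this term. It was carried over to ZT0 and ZT4, where time and disease cannot be separated from the arrays that stood apart. For all other genes, calls in nephritic kidneys are given from the main fit only, with these arrays included. Their dependence on these arrays is not given. Markers of fat, tissue that can adhere to a kidney, differed between groups: the mean of 6 fat markers, relative to all arrays, ran in young kidneys from -0.74 log2 at ZT4 to 0.81 at ZT12 and in nephritic kidneys from -0.77 at ZT4 to 0.86 at ZT0. Their part in the time courses of Cirbp and Rbm3 was not tested, and their relation with both genes within times is given below. In the young kidneys, all arrays of a time shared 1 stem in their titles, except at ZT12 with 2, so that time and whatever the stem stands for could not be told apart there. In the nephritic kidneys some stems were shared by arrays of different times.

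The Cirbp promoter is shown because a mild-cold response octamer, TCCCCGCC, has been described upstream of this gene. RefSeq promoter windows were matched for 1 of the 2 genes, with 2 starts listed for Cirbp, both of which lie inside the annotated span of the gene. The 250 bases before the first of these starts (chr10:80167589-80167838 in GRCm38.p6, plus strand) held the octamer 1 time, from base -247 to base -240 counted from the start, in capitals:
Cirbp promoter: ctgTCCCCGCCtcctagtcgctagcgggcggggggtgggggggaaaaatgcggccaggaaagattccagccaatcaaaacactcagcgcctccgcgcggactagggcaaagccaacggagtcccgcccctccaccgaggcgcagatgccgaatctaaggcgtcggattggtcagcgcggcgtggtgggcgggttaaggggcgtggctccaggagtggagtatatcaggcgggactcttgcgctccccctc
Its GC content was 65.6%. The octamer was found on either strand in 4.64% of 32851 mouse promoter windows of this length. The E-box CACGTG (6.02% of windows), the D-box TTATGTAA (0.819%) and the heat shock element core GAANNTTC (6.69%) had no match in this window on either strand. The window of the other start (chr10:80167921-80168170) held none of these motifs, the octamer included. These are matches of letters only.

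Cirbp varied over the day in young kidneys, high in the light phase and low at lights on and at ZT16. The lowest mean, 6.79 ± 0.51 log2 intensity (SD, n = 4), was that of ZT0, and the highest, 7.98 ± 0.23 (SD, n = 4), that of ZT4, a 2.28-fold difference. The time course passed the test (limma F-test, adjusted p = 0.00209), as it did for 18.3% of all genes tested. All p-values of this kind were adjusted by the Benjamini-Hochberg method over the 11559 genes tested, and those under 0.05 passed. At ZT0 the 4 young arrays read 6.26, 6.64, 6.78 and 7.48 log2. At ZT4 they read 7.70, 7.89, 8.12 and 8.20. Every ZT4 array was above every ZT0 array, although replicate 1 of ZT0, at 7.48, was above the other three of its group. At ZT8 the values were 7.15, 7.52, 7.81 and 7.85. At ZT12 the 6 arrays ran from 7.09 to 7.52 with a median of 7.37. At ZT16 they read 6.80, 6.83, 6.96 and 7.02. The ZT16 arrays were thus all below the lowest array of ZT4, ZT8 and ZT12. At ZT20 the values spread again, at 6.51, 7.19, 7.43 and 7.74, and overlapped those of every other young time.

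Summed up as a light-phase mean (ZT4 and ZT8) minus a dark-phase mean (ZT16 and ZT20), Cirbp was 0.72 ± 0.15 log2 (SE) higher in the light in young kidneys, a 1.65-fold difference (limma contrast, 95% interval 0.41 to 1.03, adjusted p = 0.00288; 11.8% of genes passed this test). A 24 h cosine fitted to the young arrays had an amplitude of 0.42 ± 0.11 log2 (SE) and a peak at 6.6 ± 0.93 h (adjusted p = 0.0204; 19.8% of genes passed). With the title stem as a random block this adjusted p was 0.0762, while the time course and the light minus dark difference still passed. No stem was shared between young times, so this fit cannot separate stem from time. For orientation, the fitted peaks of the clock genes Nr1d1, which encodes the repressor REV-ERB alpha, and Dbp, a clock-controlled transcription factor, were at 6.3 h and 8.9 h in the same kidneys and that of Arntl, which encodes BMAL1, at 21.7 h.

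In nephritic kidneys Cirbp also varied over the day (adjusted p = 0.000628; 17.2% of genes passed), with a range of 1.39 log2 or 2.62-fold, but its highest time was ZT8 and its lowest ZT12. At ZT8 the 5 arrays read 7.96, 8.20, 8.33, 8.36 and 8.50 log2 (mean 8.27 ± 0.20). At ZT12 they read 6.58, 6.74, 6.84, 6.87 and 7.37 (mean 6.88 ± 0.30). Every nephritic ZT8 array was above every nephritic array of the other 5 times, and none of these ZT8 arrays stood apart. At ZT0 the 3 arrays read 6.87, 6.97 and 7.60. At ZT4 they read 7.25, 7.37 and 7.68. All 6 of these arrays stood apart. At ZT16 the values were 6.86, 6.98 and 7.06, the last on an array that stood apart. At ZT20 they were 7.24, 7.35 and 7.63, with the lowest on an array that stood apart.

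The light minus dark difference of Cirbp in nephritic kidneys was 0.66 ± 0.14 log2 (95% interval 0.38 to 0.95, adjusted p = 0.0429), a contrast that only 0.268% of genes passed. This call lay near the threshold: it was lost when replicate 1 or 2 of ZT4, replicate 1, 2 or 3 of ZT8, replicate 3 or 4 of ZT12, replicate 1 or 2 of ZT16, or replicate 1 or 3 of ZT20 was left out, with adjusted p between 0.0562 and 0.1425 and differences between 0.62 and 0.71 log2. Arrays of ZT12 do not enter the difference, which stayed at 0.66 log2 without replicate 3 or 4 of ZT12. The call was also lost with a term for the arrays that stood apart (0.67 log2, adjusted p = 0.0637). The same held when raw signals were scaled to an equal median (0.40 log2, adjusted p = 0.0525). This median scaling replaced both the background correction and the quantile normalization. The effects of these steps on the size of the differences were not tested apart. The nephritic minus young difference in this contrast was -0.06 ± 0.22 log2 (95% interval -0.49 to 0.38, adjusted p = 0.942; 0.337% of genes passed). The fitted 24 h cosine had an amplitude of 0.49 ± 0.14 log2 and a peak at 5.5 ± 1.08 h, and did not pass (adjusted p = 0.0691; 11.5% of genes passed). It passed without replicate 2 of ZT20 (adjusted p = 0.0362) and without the arrays that stood apart (adjusted p = 0.0158), a fit with only 4 times left in which the amplitude was 1.29 log2 and the peak at 2.9 h. With a term for those arrays the amplitude was 0.66 log2 and the peak at 3.5 h (adjusted p = 0.199).

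**Figure D1:**
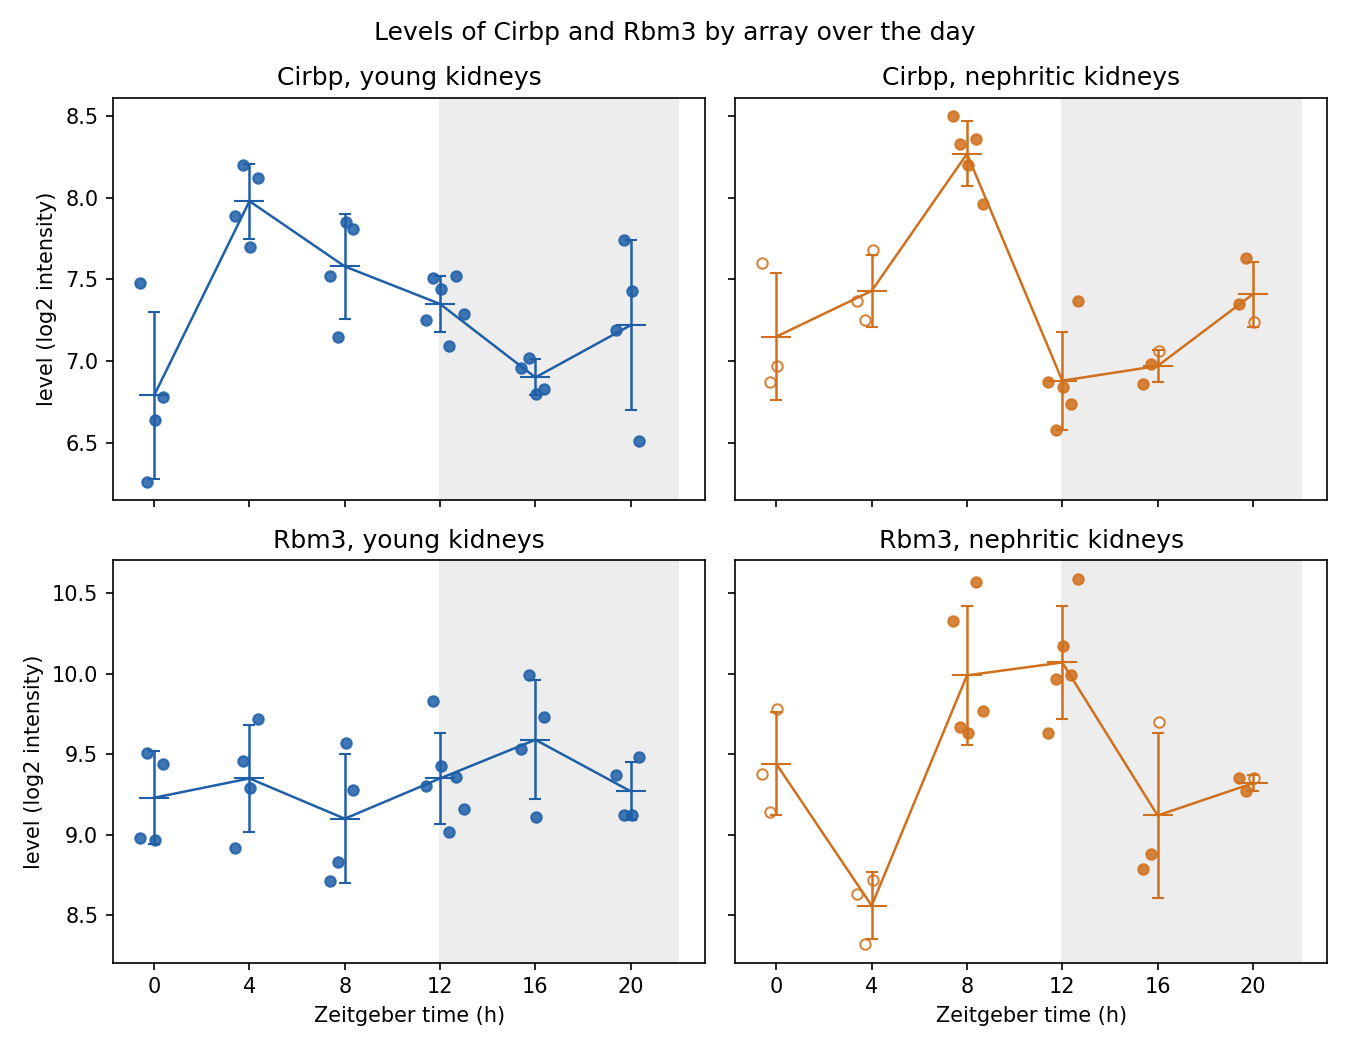
Level (log2 intensity) of Cirbp (top) and Rbm3 (bottom) against Zeitgeber time in young (left) and nephritic (right) kidneys, with 1 point per array, bars for the mean ± SD of each time and shading for the dark phase. Open points are the 8 nephritic arrays that stood apart; Cirbp was highest at ZT4 in young kidneys (7.98) and at ZT8 in nephritic kidneys (8.27), and the time means of Rbm3 spanned 0.49 log2 in young and 1.51 in nephritic kidneys.

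Rbm3 showed no time course that passed the test in young kidneys (adjusted p = 0.464). Its means ranged over 0.49 log2, or 1.41-fold, from 9.10 ± 0.40 (SD, n = 4) at ZT8 to 9.59 ± 0.37 (n = 4) at ZT16. At ZT8 the young arrays read 8.71, 8.83, 9.28 and 9.57 log2. At ZT16 they read 9.11, 9.53, 9.73 and 9.99. These extreme groups overlapped, and the other young groups lay between them: means were 9.23 ± 0.29 at ZT0, 9.35 ± 0.33 at ZT4, 9.35 ± 0.28 at ZT12 (n = 6) and 9.27 ± 0.18 at ZT20. The light minus dark difference was -0.21 ± 0.14 log2 (95% interval -0.51 to 0.09, adjusted p = 0.388), so that a light-phase excess of Rbm3 as large as that of Cirbp lay outside its interval. The fitted cosine had an amplitude of 0.13 ± 0.08 log2 (adjusted p = 0.488).

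In nephritic kidneys Rbm3 varied over the day (adjusted p = 0.00395), with a range of 1.51 log2 or 2.85-fold. It was high at ZT8 and ZT12 and low at ZT4. At ZT4 the 3 arrays read 8.32, 8.63 and 8.72 log2 (mean 8.56 ± 0.21). At ZT8 the 5 arrays read 9.63, 9.67, 9.77, 10.33 and 10.57 (mean 9.99 ± 0.43). At ZT12 they read 9.63, 9.97, 9.99, 10.17 and 10.59 (mean 10.07 ± 0.35). The ZT4 arrays were below all other nephritic arrays, and all of them stood apart. At ZT16 the values were 8.79, 8.88 and 9.70, with the highest on the array that stood apart. At ZT0 they were 9.14, 9.38 and 9.78, and at ZT20 they were 9.27, 9.35 and 9.35. Without the arrays that stood apart, the time course of Rbm3 did not pass (adjusted p = 0.189), with a range of 1.24 log2 over the 4 times left, nor did it with a term for them (adjusted p = 0.0790), with a range of 1.96 log2. ZT12 was the highest time in both of these fits. The fitted cosine peaked at 11.4 ± 1.26 h with an amplitude of 0.48 ± 0.15 log2 and did not pass (adjusted p = 0.0908), except without replicate 3 of ZT0 (adjusted p = 0.0482). The light minus dark difference was 0.05 ± 0.19 log2 (adjusted p = 0.918), and it differed from that of young kidneys by 0.26 ± 0.24 log2 (95% interval -0.22 to 0.75, adjusted p = 0.673).

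The second detected probe of Rbm3, ILMN_1253012, was dim. It was detected on 21 of 26 young and 11 of 22 nephritic arrays, so many of its values lay near background. Its young means were 5.40 ± 0.26 log2 (n = 4) at ZT0, 4.73 ± 0.19 at ZT4, 4.72 ± 0.12 at ZT8, 4.83 ± 0.27 (n = 6) at ZT12, 5.30 ± 0.21 at ZT16 and 5.0 ± 0.14 at ZT20. At ZT0 the arrays read 5.16, 5.19, 5.62 and 5.63, and at ZT8 they read 4.56, 4.68, 4.81 and 4.81. This probe was higher in the dark and at lights on, and its ZT0 and ZT16 arrays were all above its ZT4 and ZT8 arrays. Among single probes its young time course passed (adjusted p = 0.00172; 17.2% of 15981 probes passed), as did its light minus dark difference of -0.43 ± 0.10 log2 (adjusted p = 0.00606; 12.7% of probes passed), a direction opposite to that of Cirbp. The time course of this probe in nephritic kidneys did not pass (adjusted p = 0.112; 17.0% of probes passed), and its mean level over the times differed between nephritic and young kidneys by -0.20 ± 0.08 log2 (adjusted p = 0.0220; 64.7% of probes passed). In young kidneys both probes of Rbm3 had their lowest mean at ZT8 and light minus dark differences below 0, with overlapping 95% intervals (-0.50 to 0.09 and -0.64 to -0.22). Their time courses were not tested against each other. The nephritic minus young difference of ILMN_1253012 passed at no single time (limma contrasts, adjusted p over probes 0.0710 to 0.731). It was -0.42 log2 at ZT0, 0.09 at ZT4, -0.22 at ZT8, 0.33 at ZT12, -0.49 at ZT16 and -0.51 at ZT20. The third probe was detected on 1 array and was not tested. The position of each probe in the Rbm3 transcript was not analysed here.

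**Figure D2:**
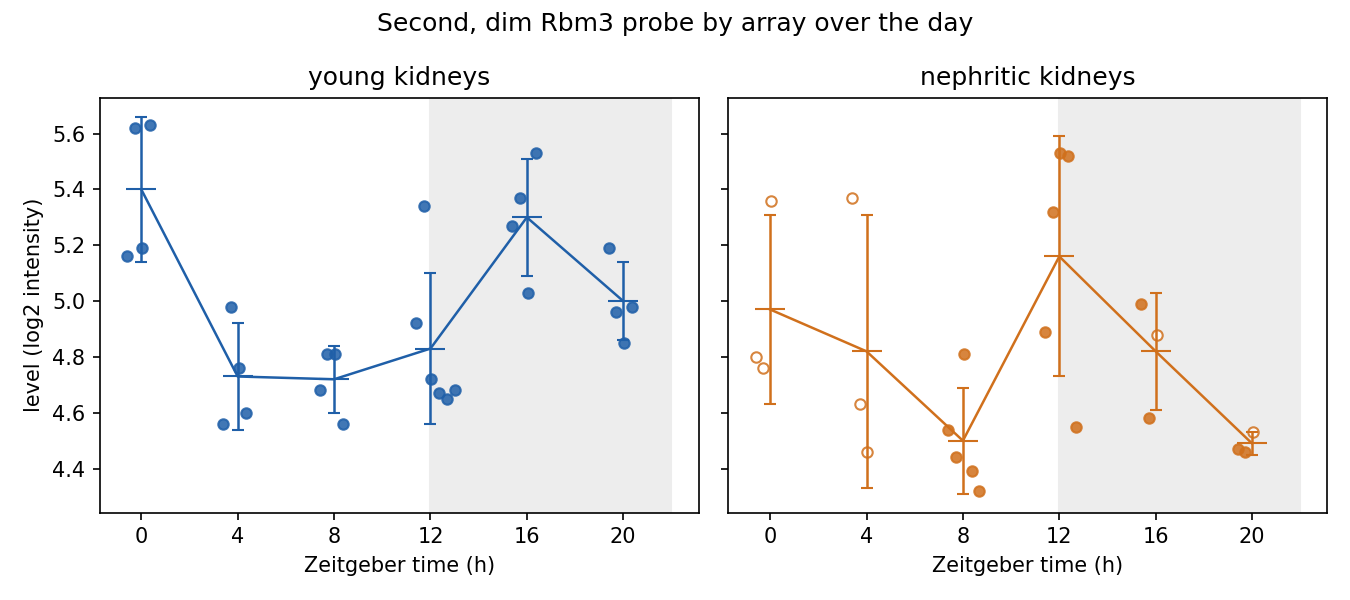
Level (log2 intensity) of the second Rbm3 probe, ILMN_1253012, against Zeitgeber time in young and nephritic kidneys, with 1 point per array, bars for the mean ± SD and shading for the dark phase. Young means ran from 4.72 at ZT8 to 5.40 at ZT0; open points are the nephritic arrays that stood apart.

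The mean level over the 6 times did not pass the test for either gene. Nephritic kidneys differed from young kidneys by 0.05 ± 0.09 log2 for Cirbp (95% interval -0.13 to 0.22, adjusted p = 0.656) and by 0.10 ± 0.10 log2 for Rbm3 (95% interval -0.09 to 0.30, adjusted p = 0.356), a comparison that 65.1% of genes passed. In bulk tissue, fewer cells of a type and less RNA per cell cannot be told apart. All 9 tested leukocyte markers were higher in nephritic kidneys (median 1.60 log2, against 0.03 for all genes). Of 9 proximal tubule markers 6 were lower and 0 higher (median -0.30 log2), a share near the 65.1% of all genes that passed. The part of these differences in the levels of Cirbp and Rbm3 was not tested.

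The time courses of both genes differed between nephritic and young kidneys. The time by disease interaction passed for Cirbp (adjusted p = 0.00603) and for Rbm3 (adjusted p = 0.000809), against 21.3% of all genes. Without the arrays that stood apart, which left ZT8, ZT12, ZT16 and ZT20, the interaction of Cirbp had an adjusted p of 0.0581, while that of Rbm3 still passed. With the title stem as a random block neither passed (adjusted p = 0.310 for Cirbp and 0.0751 for Rbm3). A test for a change of the 24 h cosine passed for neither gene (adjusted p = 0.840 for Cirbp and 0.111 for Rbm3; 16.2% of genes passed), although for Rbm3 it passed without replicate 3 of nephritic ZT0 (adjusted p = 0.0427). The fitted peak of Cirbp moved by -1.06 h (95% interval -4.01 to 1.89 h) and its amplitude by 0.07 log2 (-0.31 to 0.44). For Rbm3 the fitted amplitude was 0.35 log2 larger in nephritic kidneys (95% interval 0.0031 to 0.69, not adjusted over genes). Its fitted peaks differed by -5.09 h (95% interval -12.03 to 1.85 h). The cosine of Rbm3 passed in neither diagnosis in the main fits, so these values describe the fits only.

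Single times showed where the courses parted. At ZT8 both genes were higher in nephritic kidneys: Cirbp by 0.69 ± 0.20 log2 (1.61-fold, adjusted p = 0.0115) and Rbm3 by 0.89 ± 0.22 log2 (1.86-fold, adjusted p = 0.00345), at a time when 21.5% of genes passed and no array of either diagnosis stood apart. All 5 nephritic ZT8 arrays of each gene were above all 4 young ones. The Cirbp call was lost without replicate 2 of young ZT8 (0.54 log2, adjusted p = 0.0708) and with the title stem as a random block (0.69 log2, adjusted p = 0.134). That of Rbm3, read from ILMN_1234453, was kept under all alternatives run. The dim probe ILMN_1253012 lay the other way at ZT8 (-0.22 ± 0.18 log2) and did not pass (limma contrast, adjusted p over probes 0.402).

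At ZT4 both genes were lower in nephritic kidneys, Cirbp by -0.55 ± 0.22 log2 (adjusted p = 0.0401) and Rbm3 by -0.79 ± 0.25 log2 (adjusted p = 0.00758). At this time 48.5% of genes passed and all nephritic arrays stood apart. A term for those arrays, set by ZT16 and ZT20 only, cannot separate them from disease at ZT4. The Cirbp difference at ZT4 did not pass with a term for those arrays (-0.49 log2, adjusted p = 0.386), with no detection filter (0.0569), with array weights (0.110) or with the title stem as a block (0.227), nor without replicate 2 or 4 of young ZT4 or replicate 1 or 2 of nephritic ZT4 (adjusted p = 0.0899 to 0.152). The Rbm3 difference did not pass without replicate 2 of nephritic ZT4 (-0.67 log2, adjusted p = 0.0518) or with the title stem as a block (adjusted p = 0.0631). The dim probe ILMN_1253012 differed by 0.09 ± 0.20 log2 at ZT4 (limma contrast, adjusted p over probes 0.731).

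At ZT12 the genes parted in opposite directions. Cirbp was lower in nephritic kidneys by -0.47 ± 0.18 log2 (adjusted p = 0.0424) and Rbm3 was higher by 0.72 ± 0.20 log2 (adjusted p = 0.00560; 28.3% of genes passed). The ZT12 arrays were split into 2 sets by their titles. Young stems were CR3 in the first set and ZT12 in the second. Nephritic stems were HIL5 in the first and RX8, RX9 and RX10 in the second, stems seen at no other nephritic time. Young and nephritic arrays shared no stem, so the titles do not match the diagnoses within a set. Within the first (3 young and 2 nephritic arrays) the differences were -0.67 log2 for Cirbp and 0.28 log2 for Rbm3. Within the second (3 young and 3 nephritic arrays) they were -0.32 and 1.07 log2. Without the second set the Rbm3 difference did not pass (0.28 log2, adjusted p = 0.501). The Cirbp call at ZT12 was lost under median scaling (-0.23 log2, adjusted p = 0.104) and in the values processed by the authors (-0.27 log2, adjusted p = 0.0546), and also with no detection filter, array weights or the title stem as a block (adjusted p = 0.0609 to 0.214). It was also lost without replicate 2, 3, 5 or 6 of young ZT12 or replicate 1, 2, 3 or 4 of nephritic ZT12 (-0.48 to -0.39 log2, adjusted p = 0.0508 to 0.154).

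At the remaining times neither gene passed. At ZT0 Cirbp differed by 0.36 ± 0.22 log2 (adjusted p = 0.197) and Rbm3 by 0.21 ± 0.25 (adjusted p = 0.513), against 42.5% of genes that passed. Without replicate 1 of young ZT0, which read 7.48, the Cirbp difference was 0.59 log2 (adjusted p = 0.0291). At ZT16 the differences were 0.07 ± 0.22 (adjusted p = 0.867) and -0.47 ± 0.25 log2 (adjusted p = 0.165; 22.6% of genes passed), and at ZT20 they were 0.19 ± 0.22 (adjusted p = 0.658) and 0.05 ± 0.25 log2 (adjusted p = 0.929; 6.59% of genes passed).

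**Figure D3:**
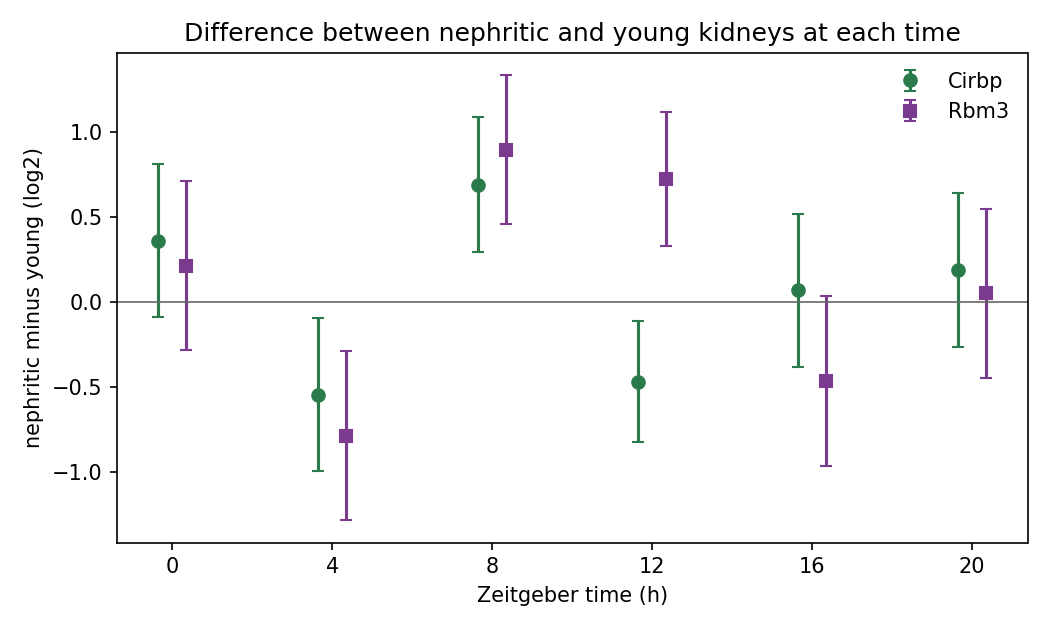
Nephritic minus young difference (log2) of Cirbp (circles) and Rbm3 (squares) against Zeitgeber time, with 95% intervals from the fit to all 48 arrays. Both genes were higher in nephritic kidneys at ZT8 (0.69 and 0.89) and lower at ZT4 (-0.55 and -0.79), and at ZT12 they parted (-0.47 and 0.72). Rbm3 is shown by probe ILMN_1234453 only.

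Genes known to respond to heat were set beside them. Of the heat-responsive chaperones and cochaperones, 17 were tested. Of these, 7 varied over the day in young kidneys (18.3% of all genes did) and 6 in nephritic kidneys (17.2% of all genes). In young kidneys 4 of the 17 were lower in the light than in the dark and 0 were higher (11.8% of all genes differed in either direction), with a list median of -0.10 log2 against 0.01 for all genes. They were Chordc1, an HSP90 cochaperone (-0.57 ± 0.11 log2), Hspb1, the small heat shock protein HSP27 (-0.42 ± 0.13), Stip1, which links HSP70 to HSP90 (-0.32 ± 0.07), and Serpinh1, the collagen chaperone HSP47 (-0.26 ± 0.08). Under median scaling 2 of them passed, Chordc1 and Stip1, and 3 did in the values processed by the authors. The value was below 0 for 14 of the 17 under the main scaling and for 11 under median scaling. In nephritic kidneys 1 passed, Chordc1 (-0.58 ± 0.07 log2, adjusted p = 0.000516; 0.268% of all genes), while the median was -0.16 log2. Chordc1 was thus lower in the light in both diagnoses, where Cirbp was higher.

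**Figure D4:**
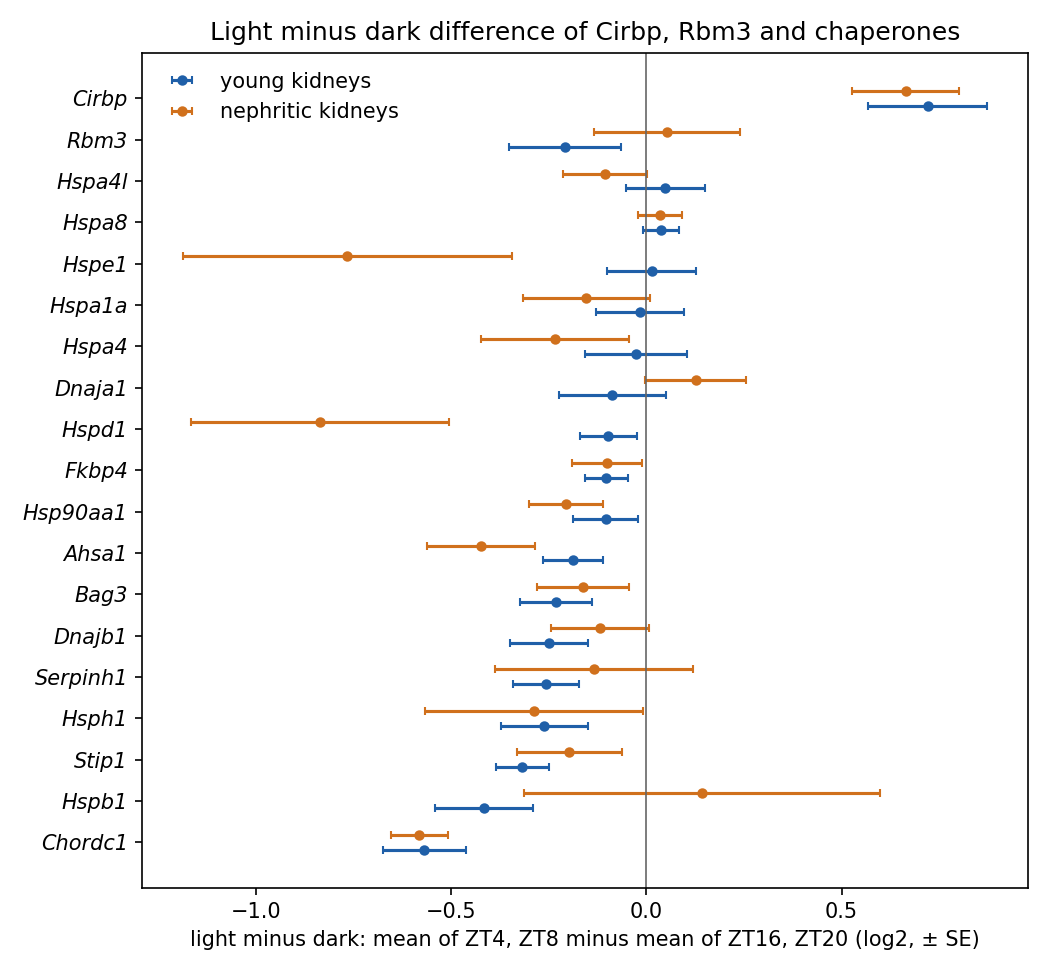
Light minus dark difference (log2, ± SE; mean of ZT4 and ZT8 minus mean of ZT16 and ZT20) of Cirbp, Rbm3 and the 17 tested chaperone genes in young and nephritic kidneys. Cirbp lay at 0.72 and 0.66 and Chordc1 at -0.57 and -0.58 in young and nephritic kidneys.

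Kidneys taken at the same time also differed among themselves in Cirbp. Its residual SD around the time means was 0.335 log2 in young kidneys, against a median of 0.164 over all genes, and 0.254 in nephritic kidneys, against 0.263. For each array the mean of the 17 chaperones was taken, each gene relative to its own mean over all arrays. Among the young ZT0 arrays, the array with Cirbp at 6.26 had the highest chaperone mean, 0.45 log2, and the array with Cirbp at 7.48 the lowest, 0.04. At young ZT20 the array with the lowest Cirbp, 6.51, likewise had the highest chaperone mean, 0.28, against 0.01 to 0.07 on the other three.

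Over all 26 young arrays, with the time means removed from both measures, Cirbp was low where the chaperones were high: Pearson's r was -0.85 (permutation p = 4e-05, adjusted over 6 relations 0.00024) and Spearman's rho was -0.74 (permutation p = 0.00031). Without the 2 arrays farthest from the median chaperone value r was -0.77. Leaving out each array in turn gave r from -0.88 to -0.79, and leaving out each time in turn gave -0.88 to -0.78. Under median scaling r was -0.68 (adjusted p = 0.0185). Both measures came from the same arrays and shared their normalization.

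Single chaperones showed the same sign in most cases. The within-time r with Cirbp in young kidneys was below 0 for 16 of the 17 genes, with a median of -0.43 against 0.01 over all tested genes. It was below -0.5 for 7 of the 17, a level reached by 2.02% of all genes. It was lowest for Chordc1 (-0.89) and Serpinh1 (-0.79), followed by Stip1 and Dnajb1 (-0.73 each), an HSP40 cochaperone, and Hsph1 (-0.72), an HSP110 protein, while Hspa8, which encodes the constitutive HSC70, was at 0.10. These genes are not independent of each other. Strong within-time r with Cirbp in young kidneys also occurred outside this list. The lowest was -0.84 among 9 leukocyte markers (median -0.15) and -0.77 among 23 other genes named Rbm (median -0.04). Among 13 genes of splicing, 7 of them below 0, the lowest was -0.69. The highest among 9 proximal tubule markers was 0.71 (median -0.01).

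Other measures of the same young arrays were compared in the same way. The mean of the leukocyte markers had r = -0.65 with Cirbp (rho = -0.53, permutation p = 0.0278, adjusted over 20 relations 0.278), which became -0.36 without the 2 arrays farthest from its median. The mean of the proximal tubule markers had r = 0.33 (rho = 0.37, permutation p = 0.0801, adjusted 0.469). The median signal (r = -0.26), the number of detected probes (r = -0.14) and the fat markers (r = -0.14) had adjusted p-values of 0.755 to 0.894. The 20 relations covered both genes and both diagnoses, and none passed. The lowest p was that of Rbm3 with the proximal tubule markers in young kidneys (r = 0.56, permutation p = 0.0108, adjusted 0.215). The fat markers had r = -0.14 with Rbm3 in young kidneys, and in nephritic kidneys -0.14 with Cirbp and -0.42 with Rbm3. The part of all these measures in the relation of Cirbp with the chaperones was not tested.

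In nephritic kidneys the relation of Cirbp with the chaperones did not pass (r = -0.27, rho = -0.30, n = 22, permutation p = 0.273, adjusted 0.545), and r ran from -0.54 to -0.16 when each array was left out in turn. It was -0.46 without the 2 arrays farthest from the median chaperone value. Without the arrays that stood apart r was -0.44 and rho -0.52 (n = 14, permutation p = 0.142, adjusted 0.284), and r was -0.70 without the 2 farthest of those 14. Whether r differed between young and nephritic kidneys was not tested. Rbm3 had no relation with the chaperones that passed, in young (r = -0.02, adjusted permutation p = 0.940) or nephritic kidneys (r = -0.14, adjusted permutation p = 0.784), and under median scaling both of these signs turned (0.11 and 0.12).

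Cirbp and Rbm3 themselves did not vary together within times in young kidneys (r = 0.08, rho = 0.29, permutation p = 0.695, adjusted 0.835). In nephritic kidneys r was 0.44 and rho 0.43 (permutation p = 0.0588, adjusted 0.176). Under median scaling this nephritic r was 0.61 (adjusted permutation p = 0.0445).

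**Figure D5:**
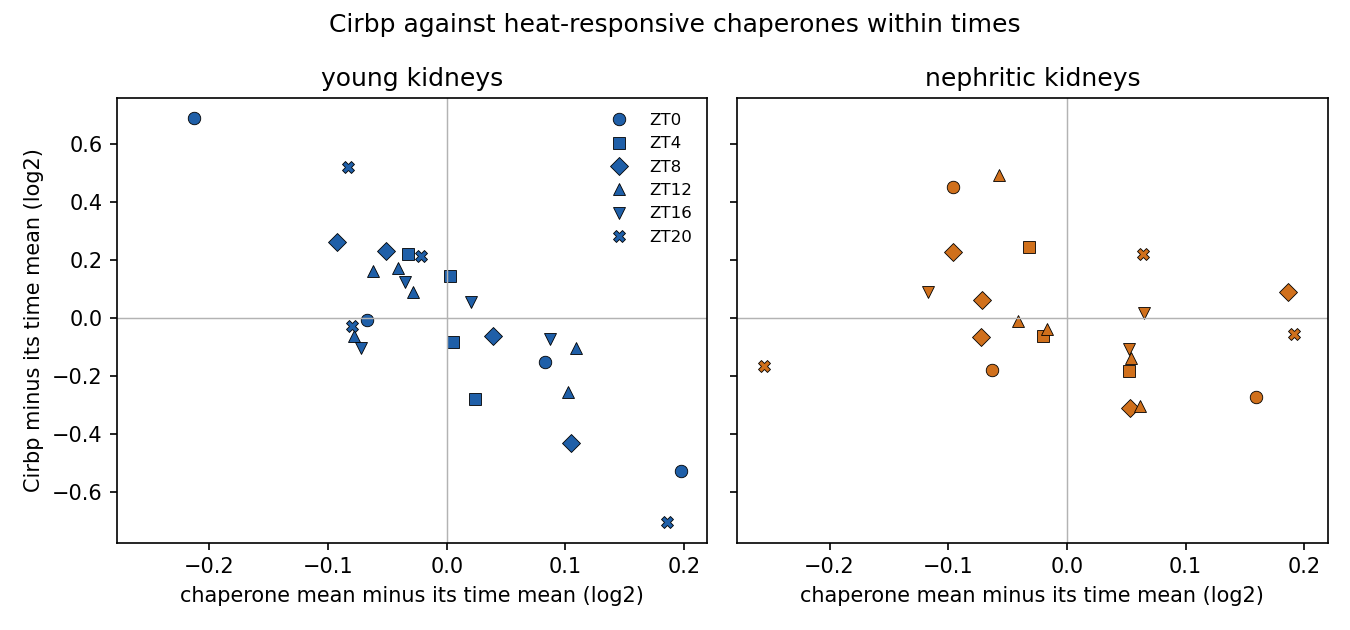
Cirbp against the mean of 17 heat-responsive chaperones, each minus its mean for that time and diagnosis (log2), with 1 point per array and 1 symbol per Zeitgeber time. In young kidneys the points fall from upper left to lower right (r = -0.85); in nephritic kidneys they scatter (r = -0.27).

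Genes of splicing were included because splicing by SR proteins and CLK kinases depends on temperature. Of 13 tested, 2 varied over the day in young kidneys, where 18.3% of all genes did: Tra2a (range 0.75 log2, highest at ZT0, adjusted p = 0.00100) and U2af1l4 (range 0.45, highest at ZT0, adjusted p = 0.00703), and 4 did in nephritic kidneys, where 17.2% of all genes did: the same pair and Srsf9 and Clk2. Between light and dark 1 of the 13 was lower and 1 higher in young kidneys (11.8% of all genes passed). Tra2a, a splicing activator, was lower in the light by -0.47 ± 0.09 log2 (adjusted p = 0.00177), and Srsf3, an SR protein, was higher by 0.25 ± 0.08 log2 (adjusted p = 0.0397). Srsf5 (range 0.64 log2, adjusted p = 0.0934) and Srsf10 (range 0.54 log2, adjusted p = 0.117), SR proteins with large ranges, did not pass. Of the receptors of extracellular CIRBP, Ly96, which encodes MD-2, varied over the day in young kidneys (range 0.93 log2, highest at ZT20, adjusted p = 0.00156) and was lower in the light by -0.80 ± 0.13 log2. Tlr4 (adjusted p = 0.876) and Trem1 (adjusted p = 0.711) did not pass. Over the mean of all times Tlr4 was 1.30-fold higher in nephritic kidneys (limma contrast, adjusted p = 1.28e-05), a comparison that 65.1% of genes passed. Its probe was dim and detected on 37 arrays. In the same comparison Ly96 (adjusted p = 0.260) and Trem1 (adjusted p = 0.799) did not pass.

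Over the 26 young arrays, time means included, the genes most like Cirbp were Nudt16 (r = 0.86), a nucleotide hydrolase, Rad50 (0.85), a subunit of the MRN DNA repair complex, Eloa (0.85), the elongin A subunit, Extl2 (0.83) and Mtcl1 (0.83). All 5 had their highest young mean at ZT4, as Cirbp did, and ranges of 0.40 to 0.54 log2. Over the 22 nephritic arrays their r with Cirbp was 0.29, 0.53, 0.18, 0.76 and 0.28. The genes most like Rbm3 were Cog4 (r = 0.71), Acaa2 (0.69), Slc6a15 (0.69), Rab5a (0.69) and Rnf113a2 (0.68), none of which had a time course that passed in young kidneys. Over the nephritic arrays their r with Rbm3 was 0.08, 0.40, 0.22, 0.65 and 0.50. These values are descriptions of likeness without a test. The genes were chosen by r over the young arrays, so a shared time of the highest young mean follows in part from the choice. So does a lower r over the nephritic arrays.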

How the data were processed

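RNA from perfused NZB/W F1 kidneys was hybridised to 48 Illumina MouseRef-8 arrays with 1 colour. The authors extracted the deposited signal intensity per probe with GenomeStudio (version not given in the sources used here), on a linear scale and not normalized between arrays. The deposited detection p-value sets each probe against the negative controls of its array. The processed intensity table of the authors was used as an alternative only. It was quantile-normalized on a linear scale. The methods describe log2 array values at an equal median, with a quantile step after merging with sequencing data. All value columns of both tables were matched to samples (0 without one).

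Signals were background-corrected by normexp (offset 16), quantile-normalized and log2-transformed (neqc from limma 3.58.1 in R 4.3.3). The annotation gave 1 gene symbol for 23978 of the 25697 probes, several for 0 and none for 1719, and 23962 matched the RefSeq gene table (GRCm38.p6), with 0 symbols changed. A probe entered the tests if its detection p was below 0.05 on 3 or more arrays (15981 probes), and each gene was represented by the probe with the highest mean (11559 genes). Signal over background and the number of arrays limit the precision. Among all pairs of arrays the highest correlation was 0.996, and 0 pairs were identical.

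Groups came from the source names in the labels. Replicates were numbered in listing order. Tests were limma moderated tests with Benjamini-Hochberg adjustment over all genes (threshold 0.05): an F-test over the 6 times and a 24 h cosinor within each diagnosis, and contrasts and interactions from 12 group means over all 48 arrays. Values after ± are SE for differences and amplitudes and SD for group means. Correlations within times used 2-sided permutation tests within times (100000 resamples). Scripts were tested on simulated data. Alternatives covered the scaling, the detection filter, the probe choice and the second array set at ZT12. They also covered the arrays that stood apart, array weights, the title stem as a block and leaving out each array. Tests of every probe and the leave-out values of the chaperone relation were chosen after seeing the data.

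The members, lists and tests were chosen with earlier results of these data known. Named genes were Cirbp and Rbm3 with every probe, the 5 genes most like each over the young arrays, the 3 members of each list with the largest young range, all members of lists of 6 or fewer, Pabpc1 and kidney markers. Other members were named after their values were seen. Promoters came from RefSeq (GRCm38.p6).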

Additional observations from a re-analysis of the deposited data

Results flagged for a closer look

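The time course of Cirbp differed between nephritic and young kidneys by the test of the difference itself (limma interaction, adjusted p = 0.00603), but the call was lost with the title stem as a random block (0.310) and without the arrays that stood apart (0.0581). That of Rbm3 differed by the same test (adjusted p = 0.000809), a call lost with the title stem as a block (0.0751). In 0 of 16 groups of 4 to 6 arrays did the gap of the highest or lowest array to its neighbour, divided by the range of the group, pass Dixon's critical value at the 95% level, young Cirbp at ZT0 included.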

How the results depend on the processing

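Under the 7 alternatives run in young and the 9 in nephritic kidneys, the young Cirbp time course (adjusted p 0.000283 to 0.0131), its light minus dark difference (0.000261 to 0.0133) and its nephritic time course (0.000288 to 0.0107) stayed past the threshold, as they did when any single array was left out. In young kidneys the alternative with the title stem as a block cannot separate stem from time, since no stem was shared between times. With the title stem as a random block the adjusted p was 0.0762 for the young Cirbp cosinor, 0.310 for its interaction and 0.0751 for that of Rbm3, and the Rbm3 difference at ZT20 was -0.0488 log2. Without the arrays that stood apart the adjusted p was 0.189 for the nephritic Rbm3 time course, 0.0158 for the nephritic Cirbp cosinor and 0.0581 for the Cirbp interaction, and r of Rbm3 with the chaperones was 0.31. With a term for those arrays the adjusted p of the Rbm3 time course was 0.0790, the nephritic light minus dark difference was 0.67 log2 for Cirbp and -0.0227 for Rbm3, and Rbm3 differed by -0.10 log2 in level, -0.24 at ZT0 and -0.10 at ZT20. The nephritic light minus dark difference of Cirbp was 0.40 log2 under median scaling and 0.66 with detection on at least 24 arrays, neither past the threshold. Under median scaling r of Rbm3 with the chaperones was 0.11 in young and 0.12 in nephritic kidneys, and that of Cirbp with Rbm3 in nephritic kidneys was 0.61. The causes were not tested. Leaving out each array in turn gave 0.60 to 0.72 log2 for the nephritic light minus dark difference of Cirbp and -0.0315 to 0.198 for Rbm3, -0.143 to 0.0613 for the difference in light minus dark of Cirbp, adjusted p of 0.0362 to 0.117 and 0.0482 to 0.161 for the nephritic cosinor of Cirbp and Rbm3 and of 0.0427 to 0.174 for the rhythm change of Rbm3, and at ZT20 differences of -0.0491 to 0.359 for Cirbp and -0.00318 to 0.116 for Rbm3. The light minus dark difference without the arrays that stood apart could not be computed, since no nephritic ZT4 array was left. No paired analysis was possible because the replicate numbers were given in listing order and name no shared animal or batch, while the title stems entered only as a random block.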

Other observations

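Poly(A) site choice, which CIRBP and RBM3 are known to affect, is carried out by cleavage and polyadenylation factors, of which 17 were tested. In young kidneys 4 varied over the day (18.3% of all genes did), among them Cstf3, a cleavage stimulation factor subunit that was highest at ZT16 (range 0.56 log2, adjusted p = 0.000775) and lower in the light by -0.31 ± 0.07 log2, and Pabpc1 (range 0.45 log2, highest at ZT8, adjusted p = 0.0264). In nephritic kidneys 7 varied (17.2% of all genes did), among them Pcf11, a termination factor (range 0.90 log2, highest at ZT12, adjusted p = 0.0114), and Pabpc1 (range 3.06 log2), whose level defined the arrays that stood apart. Of the 23 other tested genes named Rbm, 4 varied over the day in young and 4 in nephritic kidneys, shares near those of all genes. Rbm15 varied in both, highest at ZT16 each time (ranges 0.50 and 0.84 log2, adjusted p = 0.0352 and 0.00638). Rbm8a, a core subunit of the exon junction complex, passed in nephritic kidneys (range 1.02 log2, adjusted p = 0.0114) and had an adjusted p of 0.173 in young kidneys, and Rbm11 did not pass in young kidneys (range 0.48 log2, adjusted p = 0.104).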
